A study of Danio rerio with 96 samples.

Results

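Heads of zebrafish larvae that carried a mutant glucocorticoid receptor (GR) were compared after 100 µM betamethasone and after 0.2% ethanol, the control treatment. The comparison held 48 of the 96 libraries of the series, 24 from GR mutant betamethasone-treated and 24 from GR mutant control larvae, chosen by their genotype and treatment labels. All larvae were at 5 days post-fertilisation, and each library was counted as 1 dissected head. The other 48 libraries, 24 of GR wild-type betamethasone-treated and 24 of GR wild-type control larvae, enter only where the response in mutants is set against that in wild type. Both mutant groups shared the mutant genotype. The labels do not name the allele, give the length of the exposure or say whether the betamethasone medium also held ethanol, and the data hold no readout that checks the genotype.

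GR is a nuclear receptor that binds cortisol and synthetic glucocorticoids such as betamethasone, moves to the nucleus and regulates transcription at its DNA binding sites. In mammals, glucocorticoid exposure has been linked to loss of methylation at CpGs near some receptor binding sites. Methylation of CpGs is read by bisulfite conversion, after which unmethylated cytosines are sequenced as T and methylated ones as C. In larvae with a mutant receptor, the comparison asks what difference in methylation accompanied the steroid and how large a difference the data could have hidden. A head holds many cell types, so a difference in cell mix and a difference in methylation per cell cannot be told apart.

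The methylation level of a CpG was the share of methylated reads out of all reads, and a larva entered with at least 30 reads. The data covered 50 CpGs in 8 target amplicons (1-based positions, build GRCz10), which are named here by chromosome, with the position in megabases (Mb) for the 3 amplicons on chromosome 6. An amplicon level used the reads summed over its CpGs. The amplicons were chromosome 2 from 14499688 to 14499886 (10 CpGs), chromosome 3 from 25887983 to 25888164 (6 CpGs) and chromosome 8 from 22488700 to 22488907 (3 CpGs). Further ones were chromosome 15 from 4079178 to 4079402 (13 CpGs) and chromosome 16 from 8404129 to 8404240 (5 CpGs). On chromosome 6 they ran from 27961540 to 27961753 (28.0 Mb, 4 CpGs), from 41099247 to 41099469 (41.1 Mb, 4 CpGs) and from 49743949 to 49744115 (49.7 Mb, 5 CpGs). Genes and sequences are not given, because no genome or annotation of that build was used here.

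Total cytosine calls per library had a median of 1117623 (13422 to 1546505) in betamethasone-treated mutants and 1240633 (358210 to 1695694) in control mutants. The shallowest, betamethasone-treated library 3, gave a value only on chromosome 15, and the next lowest of its group held 755526 calls. Methylation at non-CpG cytosines, which includes incomplete conversion, averaged 1.51% ± 0.434 in betamethasone-treated and 1.34% ± 0.647 in control mutants (SD, n = 24 each). The difference of 0.166 percentage points (95% interval -0.155 to 0.488) did not pass a two-sided permutation test (p = 0.301).

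No amplicon passed the test for a difference in mean methylation with betamethasone in GR mutants. By beta-binomial regression with Benjamini-Hochberg adjustment, 0 of 8 (0%) were past the threshold of 0.05, and 1 had an unadjusted p below 0.05. By the permutation test of equally weighted larvae 0 passed as well, and by a quasi-binomial test weighted by reads 1 passed. Means were higher with betamethasone at 4 amplicons and lower at 4, with a median absolute difference of 2.82 percentage points and a largest of 6.02. In the larvae with all 8 amplicons, the mean over amplicons was 66.7% ± 4.32 (SD, n = 13) with betamethasone and 68.7% ± 5.02 (SD, n = 17) in control, a difference of -1.92 (95% interval -5.42 to 1.58).

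**Figure D1:**
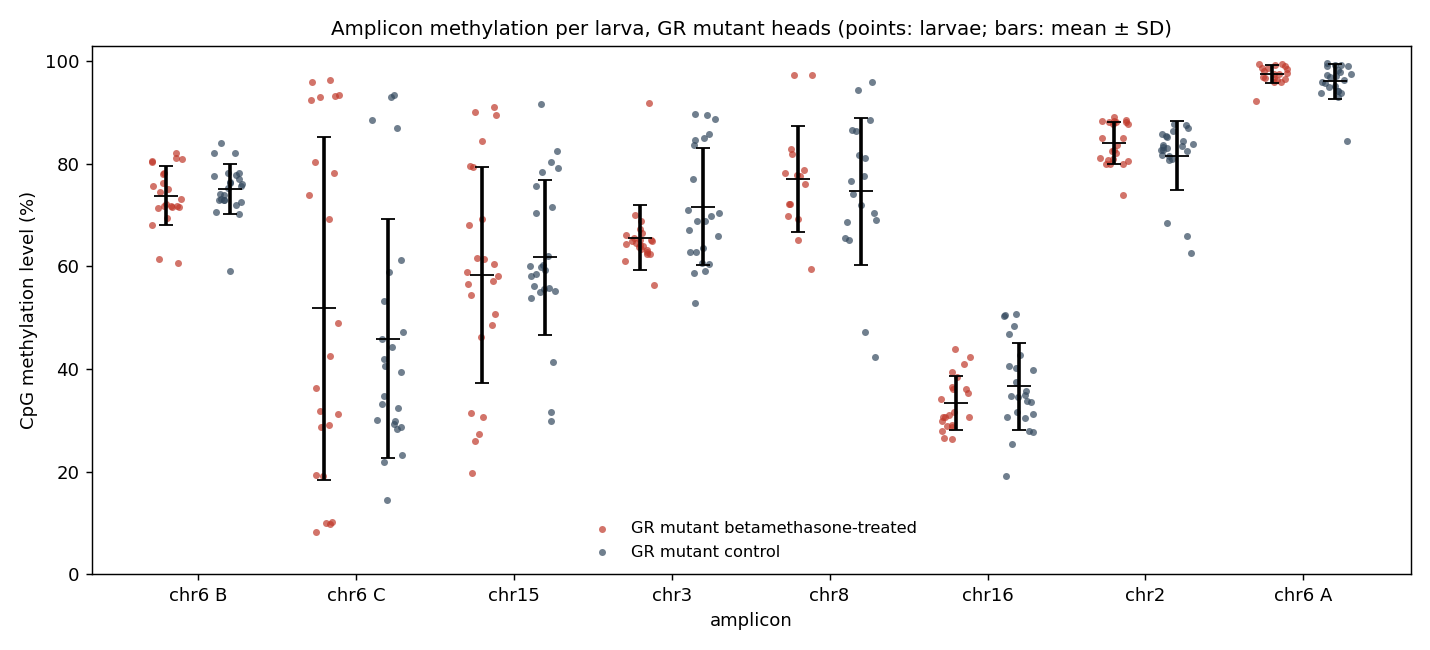
CpG methylation level (%) of each amplicon in each GR mutant larva, betamethasone-treated left of control, with bars at the mean ± SD; chr6 A, B and C are the chromosome 6 amplicons at 28.0, 41.1 and 49.7 Mb. The groups overlap at all 8 amplicons, the larvae spread from 8.29% to 96.4% at chr6 C, and the betamethasone-treated larvae are bunched around their median of 64.5% on chromosome 3.

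The deeply covered amplicons come first, since counting error is small there. At 41.1 Mb of chromosome 6, with a median of 7928 reads per CpG in betamethasone-treated and 7923 in control mutants, levels ran from 60.8% to 82.2% with a median of 73.2% in betamethasone-treated larvae, and from 59.2% to 84.2% with a median of 75.6% in controls. The 2 ranges lay almost on top of each other. Means were 73.8% ± 5.71 (SD, n = 23) with betamethasone and 75.1% ± 4.91 (SD, n = 24) in control, a difference of -1.27 (SE 1.56). Mean differences below -4.40 or above 1.87 percentage points fell outside the 95% interval. Its bound farther from 0, at -4.40, was the narrowest limit among the 3 deepest amplicons. The wider interval simultaneous over all amplicons ran from -5.74 to 3.20, so somewhat larger differences were not excluded by it. The 4 CpGs of the amplicon were all lower with betamethasone, by 0.697 to 1.89 points, and none passed (adjusted p of 0.528 to 0.831 by the beta-binomial test). Position 41099385 stood far below its neighbours, with a mean of 16.3% ± 14.6 in betamethasone-treated (SD, n = 23) and 17.6% ± 14.5 in control mutants (SD, n = 24).

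At 49.7 Mb of chromosome 6, levels ran from 8.29% to 96.4% with a median of 42.5% in betamethasone-treated larvae and from 14.5% to 93.4% with a median of 40.0% in control larvae. Both groups thus covered nearly the whole scale. Median depth was 8013 reads per CpG in betamethasone-treated and 8009 in control larvae, at the end of the deposited scale, so a difference in depth beyond it would not be seen. Means were 51.8% ± 33.4 (SD, n = 23) with betamethasone and 45.9% ± 23.3 (SD, n = 24) in control. The difference of 5.94 points (SE 8.43, 95% interval -11.1 to 23.0) missed the threshold (adjusted p = 0.652 with beta-binomial regression). Only differences below -11.1 or above 23.0 points fell outside that interval. All 5 CpGs were higher with betamethasone, by 5.14 to 6.94 points. They moved together within a larva, with a median range over the 5 CpGs of 3.86 points in betamethasone-treated and 4.04 points in control larvae, so they carry little more than 1 measurement. Without the libraries above 2% non-CpG methylation, 1 with betamethasone and 5 in control, the amplicon difference was 0.637 points (95% interval -17.4 to 18.7).

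On chromosome 15, levels ran from 19.6% to 91.1% with a median of 58.5% in betamethasone-treated larvae and from 29.9% to 91.7% with a median of 59.6% in control larvae. Means were 58.4% ± 21.0 with betamethasone and 61.8% ± 15.1 in control (SD, n = 24 each), which differed by -3.41 (SE 5.29, 95% interval -14.1 to 7.26). Of its 13 CpGs, 4 were higher and 9 lower with betamethasone, from 12.7 points lower at 4079376 to 7.80 higher at 4079310. At 4079376 the means were 54.7% ± 28.1 with betamethasone and 67.4% ± 20.6 in control (SD, n = 24 each). Its 95% interval, -27.1 to 1.66, was among the widest of all CpGs. The site is less than 30 bp from where the amplicon stops, as are other sites called near an end below. Whether such sites overlap a primer was not tested. Levels at 4079376 ran from 7.20% to 96.8% with betamethasone and from 27.9% to 94.1% in control.

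The chromosome 3 amplicon had the smallest p for a mean difference. Levels ran from 56.5% to 91.9% with a median of 64.5% in betamethasone-treated larvae and from 52.9% to 89.8% with a median of 68.9% in control larvae, and 21 of 23 betamethasone-treated larvae lay below the control median. Means were 65.6% ± 6.32 (SD, n = 23) with betamethasone and 71.6% ± 11.4 (SD, n = 23) in control. The difference of -6.02 points (SE 2.73, 95% interval -11.6 to -0.478) had an unadjusted p of 0.0252 and an adjusted p of 0.201 by the beta-binomial test. An interval simultaneous over the 8 amplicons ran from -14.0 to 1.93. Without betamethasone-treated library 1, the single library of its group above 90%, the difference was -7.21 and passed (adjusted p = 0.0172 by the same test). All 6 CpGs of the amplicon were lower with betamethasone, by 2.48 to 14.4 points.

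Depth on chromosome 3 moved with treatment. The median was 136 reads per CpG in the betamethasone-treated larvae with a value and 4476 in the control ones. Of the 8 amplicons 1 (12.5%) passed a two-sided permutation test of log10 depth, and it was this one (difference -0.987, adjusted p = 0.00032). Of 23 betamethasone-treated larvae, 21 had under 300 reads per CpG, against 3 of 23 control larvae. The 21 shallow betamethasone-treated libraries lay between 61.1% and 70.0% with a median of 64.5%, and the 2 deep ones, at 8010 and 8012 reads, stood at 91.9% and 56.5%. The 3 shallow control libraries lay between 60.6% and 67.0%, and the 20 deep ones between 52.9% and 89.8% with a median of 70.1%. Shallow libraries of either treatment thus covered one narrow band and deep libraries a wide one. With 2 deep libraries on one side and 3 shallow ones on the other, depth and treatment cannot be told apart at this amplicon.

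**Figure D2:**
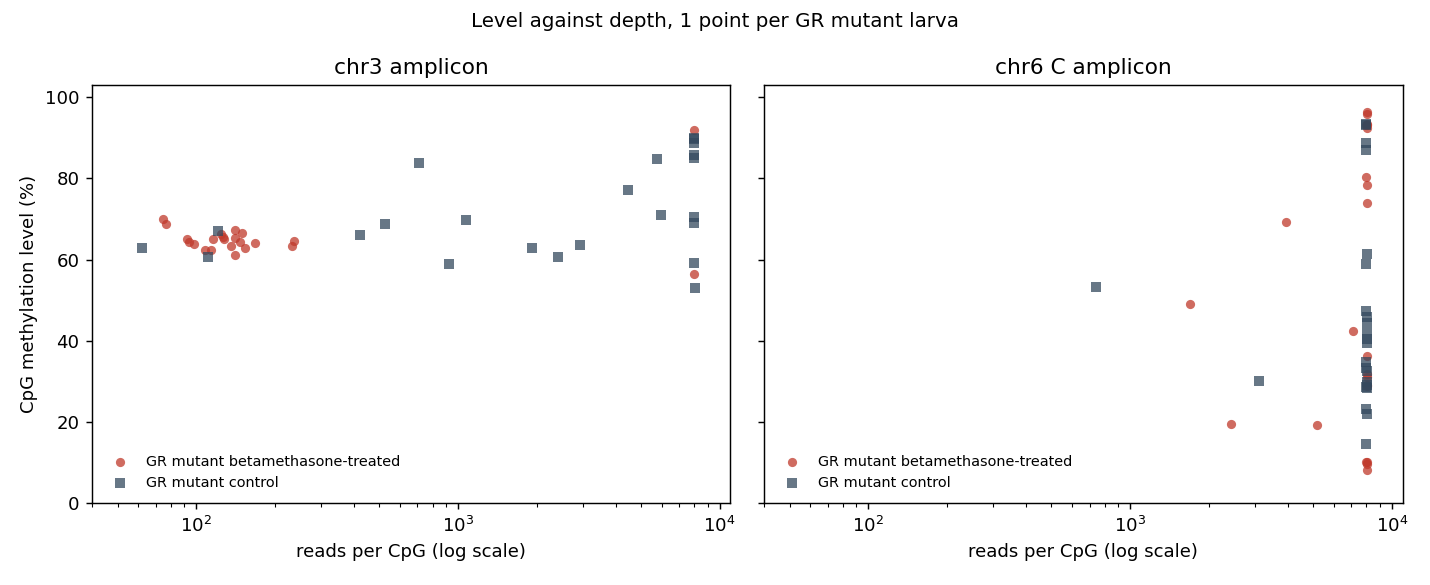
Methylation level (%) against reads per CpG (log axis) for each GR mutant larva, on chromosome 3 (left) and at 49.7 Mb of chromosome 6 (chr6 C, right). On chromosome 3 the 21 shallow betamethasone-treated larvae lie between 61.1% and 70.0% at under 300 reads, while 20 control larvae lie above 300 reads and reach 89.8%. At chr6 C both groups span the scale and have a median depth near 8000 reads. Single libraries there go down to 1699 reads with betamethasone and 741 in control.

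The remaining amplicons had fewer reads. On chromosome 16, at a median of 722 reads per CpG in betamethasone-treated and 1705 in control mutants, levels ran from 26.4% to 43.9% (median 31.3%) with betamethasone and from 19.2% to 50.7% (median 34.9%) in control. The betamethasone-treated range lay wholly inside the control range. The mean was 33.4% ± 5.22 (SD, n = 22) with betamethasone and 36.6% ± 8.45 (SD, n = 24) in control, differing by -3.21 (SE 2.05, 95% interval -7.36 to 0.943, adjusted p = 0.352 by the beta-binomial test).

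On chromosome 2, at a median of 641 reads per CpG in betamethasone-treated and 425 in control mutants, levels ran from 73.9% to 89.1% (median 83.6%) with betamethasone and from 62.6% to 87.8% (median 83.4%) in control. The medians nearly coincided, and the 3 lowest larvae were controls. The mean was 84.0% ± 4.07 with betamethasone and 81.6% ± 6.68 in control (SD, n = 23 each), differing by 2.41 (SE 1.63, 95% interval -0.896 to 5.72, adjusted p = 0.352 by the beta-binomial test).

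At 28.0 Mb of chromosome 6, levels ran from 92.2% to 99.5% (median 97.6%) in betamethasone-treated and from 84.4% to 99.7% (median 96.6%) in control larvae, at a median of 132 reads per CpG with betamethasone and 199 in control. This amplicon was close to full methylation in both groups and had the tightest limit, with means of 97.5% ± 1.73 with betamethasone (SD, n = 19) and 96.1% ± 3.32 in control (SD, n = 22). The difference was 1.39 points (SE 0.812, 95% interval -0.259 to 3.05, adjusted p = 0.352 by the beta-binomial test). On chromosome 8, at only 61 reads per CpG in betamethasone-treated and 170 in control larvae, levels ran from 59.5% to 97.3% (median 77.6%) in betamethasone-treated and from 42.4% to 95.9% (median 75.4%) in control larvae. The mean there was 77.1% ± 10.3 (SD, n = 15) with betamethasone and 74.6% ± 14.3 (SD, n = 18) in control, differing by 2.44 (SE 4.30, 95% interval -6.34 to 11.2). The quasi-binomial test, in which the deepest libraries count most, gave 13.2 on chromosome 8 (adjusted p = 0.0159), and without the libraries above 2% non-CpG methylation the unweighted difference was -0.988, so neither the size nor the direction was stable there.

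Of the 50 CpGs, 20 had a higher and 30 a lower mean with betamethasone in GR mutants. Past the adjusted threshold were 1 (2%) lower and 0 higher, while an unadjusted p below 0.05 was found at 8. The one that passed, 25888127 on chromosome 3, ranged from 88.6% to 100% with a median of 94.6% in betamethasone-treated larvae, and from 90.9% to 98.4% with a median of 97.2% in control larvae. The groups overlapped, but 21 of 23 betamethasone-treated larvae lay below the control median. Means were 93.7% ± 3.04 with betamethasone and 96.4% ± 2.05 in control (SD, n = 23 each), a difference of -2.65 (SE 0.765, 95% interval -4.20 to -1.10, adjusted p = 0.00943 by the beta-binomial test). An interval simultaneous over the 50 CpGs, -5.38 to 0.073, included 0. The shallow libraries under 300 reads had a median of 94.5% in the 21 betamethasone-treated and 94.9% in the 3 control larvae. The deep ones stood at 96.4% and 97.1% in the 2 betamethasone-treated and at a median of 97.3% in the 20 control larvae. Within a depth class the 2 treatments therefore lay less than 1 point apart in their medians, though the shallow control and deep betamethasone-treated libraries are few, and depth and treatment cannot be told apart. The call was kept at a minimum of 100 reads (difference -3.14, adjusted p = 0.00461, n = 18 with betamethasone and 22 in control, beta-binomial test). It was lost by the permutation test (difference -2.65, adjusted p = 0.0545), without libraries above 2% non-CpG methylation (-2.32, 0.0594) and with libraries of matching profiles counted once (-2.21, 0.0999), each with a 95% interval that excluded 0. The quasi-binomial test did not call it either (difference -0.516, adjusted p = 0.825).

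The other 7 CpGs with an unadjusted p below 0.05 did not pass over all CpGs. The nearest was 27961650 at 28.0 Mb of chromosome 6, which ranged from 87.2% to 100% (median 98.1%) in betamethasone-treated and from 70.7% to 100% (median 93.8%) in control larvae. Of its 19 betamethasone-treated larvae, 17 lay above the control median. The mean was 97.1% ± 3.57 (SD, n = 19) with betamethasone and 91.4% ± 7.90 (SD, n = 22) in control, differing by 5.75 (95% interval 1.93 to 9.58, adjusted p = 0.0604 by the beta-binomial test). It passed when CpGs near amplicon ends were left out of the adjustment (adjusted p = 0.0483) and in 17 of the 48 fits without 1 larva.

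On chromosome 16, 8404205 averaged 44.6% ± 12.4 (SD, n = 22) with betamethasone and 55.2% ± 12.3 (SD, n = 24) in control, a difference of -10.6 (95% interval -18.0 to -3.27, adjusted p = 0.0641 by the beta-binomial test), with 17 of 22 larvae below the control median. On chromosome 2, 14499712 averaged 83.2% ± 15.8 with betamethasone and 68.5% ± 22.0 in control (SD, n = 23 each). Its difference of 14.8 (95% interval 3.32 to 26.2, adjusted p = 0.0677) was the largest of the 50, and the site is near an amplicon end. A neighbour on the same amplicon, 14499800, lay the other way, at 92.9% ± 7.32 with betamethasone and 97.0% ± 3.56 in control (SD, n = 23 each; difference -4.08, adjusted p = 0.209). The 10 CpGs of the chromosome 2 amplicon thus did not move as one, with 6 higher and 4 lower.

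On chromosome 8, 22488753 averaged 77.3% ± 11.9 (SD, n = 15) with betamethasone and 88.7% ± 8.39 (SD, n = 18) in control, a difference of -11.4 (95% interval -18.9 to -3.85, beta-binomial adjusted p = 0.247). The quasi-binomial test gave 19.3 in the opposite direction. The last 2 lay on chromosome 3 and shared its difference in depth. Position 25888054 averaged 73.8% ± 6.19 with betamethasone and 80.4% ± 10.2 in control (SD, n = 23 each; difference -6.54, 95% interval -11.6 to -1.48, adjusted p = 0.0641). Position 25888004, near an amplicon end, had a difference of -2.48 (95% interval -4.27 to -0.684, adjusted p = 0.145). The second largest difference of the 50 was also there, at 25888047, with 32.0% ± 13.9 in betamethasone-treated and 46.4% ± 26.1 in control larvae (SD, n = 23 each; difference -14.4, 95% interval -26.9 to -1.88), but its adjusted p was 0.511.

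**Figure D3:**
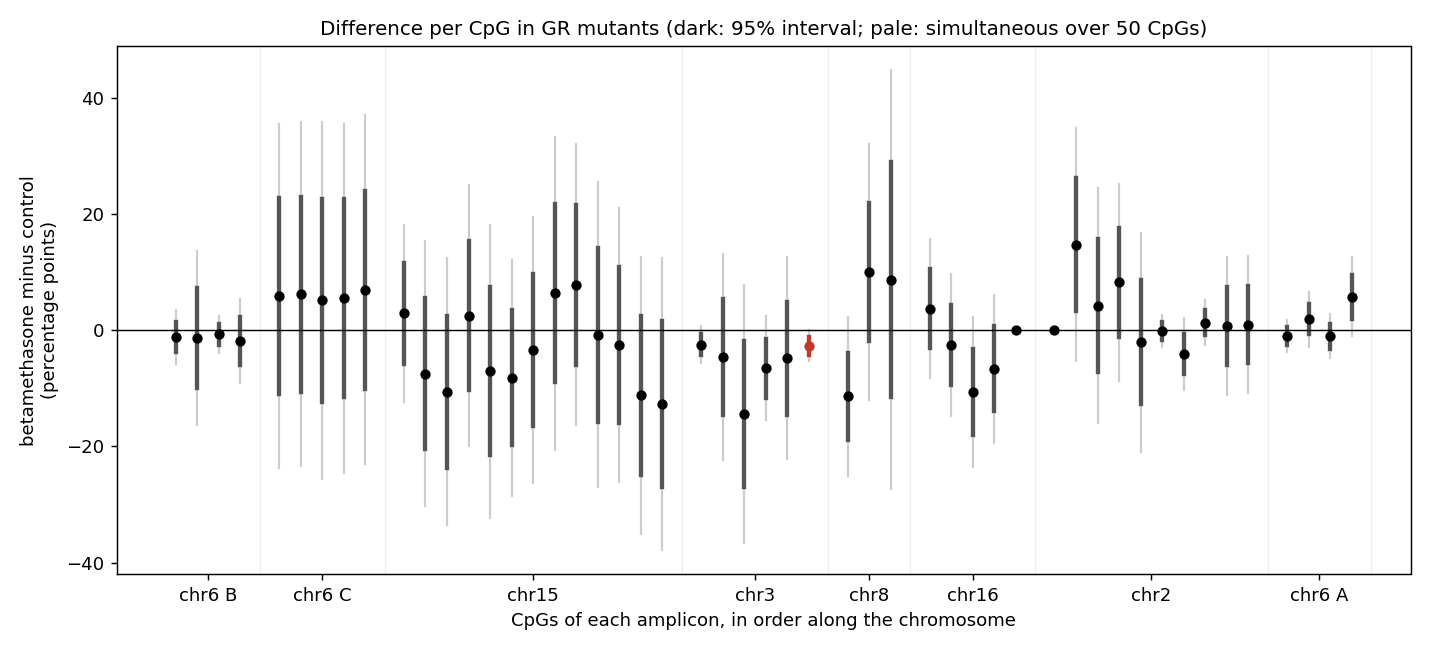
Difference of mean methylation per CpG, betamethasone-treated minus control GR mutants (percentage points), with the 95% interval (dark) and the interval simultaneous over the 50 CpGs (pale); CpGs run in order along each amplicon, and chr6 A, B and C are the amplicons at 28.0, 41.1 and 49.7 Mb. The red CpG is 25888127, the 1 past the adjusted threshold; the intervals at chr6 C all include 0, and on chromosome 8 they run from -18.9 to -3.85 at 22488753 and from -11.5 to 29.0 at 22488829.

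The intervals state which mean differences the data leave possible in GR mutants, with each larva taken as independent. Libraries of nearly the same level may not be independent, and the limits given next may then be too narrow. On chromosome 15, betamethasone-treated libraries 4 and 10 lay at 31.4% and 30.7%, and 14 and 20 at 79.5% and 79.3%. Libraries 15 and 21 lay at 60.6% and 61.7%, while other pairs, such as 1 and 7 at 58.1% and 91.1%, were far apart. Nearly equal levels were also seen at 41.1 Mb of chromosome 6. There, betamethasone-treated libraries 9 to 11 lay between 80.4% and 80.9%, and 12 to 14 between 71.5% and 71.8%. Across the 50 CpGs the bound farther from 0 had a median of 15.0 percentage points and reached 29.0 at 22488829 on chromosome 8. The 95% interval lay within ±5 points at 11 CpGs, within ±10 at 18, within ±15 at 25, within ±20 at 34 and within ±25 at 46. With intervals simultaneous over all CpGs these counts were 6, 12, 17, 22 and 27. They include 8404240 and 14499697, which both lie less than 30 bp from an amplicon end and could overlap a primer. Almost no read was methylated there in either group, and even a large relative difference would be a small one in points. A difference of 5 points in either direction was therefore outside the 95% interval at 11 of 50 CpGs, and one of 25 points at 46. Most of the other CpGs within ±5 points had control means within 5 points of full methylation. Among them were 41099420 (95.2%), 25888127 (96.4%) and 27961568 (96.8%). A rise of 5 points had no room on the scale there, so only the limit on a fall is informative.

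For amplicons the bound farther from 0 had a median of 9.29 points and ran from 3.05 points at 28.0 Mb of chromosome 6 to 23.0 points at 49.7 Mb. The 95% interval lay within ±5 points at 2 amplicons (28.0 and 41.1 Mb), within ±10 at 4, within ±15 at 7 and within ±25 at all 8, while simultaneous intervals gave 1, 4, 5 and 7. The depth of reads set these limits only in part. At 49.7 Mb the counting error of a larva was 0.231 points in betamethasone-treated and 0.279 points in control larvae, against SDs between larvae of 33.4 points with betamethasone and 23.3 in control. On chromosome 8 it was 3.14 points with betamethasone (SD 10.3) and 2.45 points in control (SD 14.3).

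Spread between larvae was the second measure. The SD was larger in betamethasone-treated mutants at 3 amplicons and smaller at 5, and 1 of 8 (12.5%) passed a two-sided permutation test of absolute deviations from the group median (Brown-Forsythe statistic, Benjamini-Hochberg adjusted). On chromosome 3 the larvae with betamethasone were less spread than those in control, with a mean absolute deviation of 2.97 points with betamethasone and 9.24 in control, and an interquartile range of 2.61 points with betamethasone and 21.4 in control (adjusted p = 0.0105 by the permutation test). The ratio of SDs was 0.553 with a 95% jackknife interval of 0.109 to 2.81, and leaving out 1 larva at a time gave ratios of 0.238 to 0.578. Among the 21 shallow betamethasone-treated libraries the SD was 2.12 points, close to the 1.76 points that counting error alone gives at their depth. Among the 20 deep control libraries it was 11.8 points against a counting error of 0.425. The narrower spread thus came with the depth difference described above, and spread and depth cannot be told apart here.

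At 49.7 Mb of chromosome 6 betamethasone-treated larvae had an SD 1.43 times that of controls (95% jackknife interval 1.03 to 2.00), with an interquartile range of 62.3 points with betamethasone and 24.9 in control. The difference in spread had an unadjusted p of 0.0143 and an adjusted p of 0.0571 by the permutation test, and did not pass. Of the 23 betamethasone-treated larvae, 8 were below 30%, 9 between 30% and 90% and 6 above 90%. Of the 24 control larvae, 7 were below 30%, 15 between and 2 above 90%. More larvae at the top of the scale and fewer in the middle thus accompanied the wider spread. The numbers below 30% were alike, but the betamethasone-treated larvae reached lower values there. The 25th percentile was 24.1% with betamethasone and 29.8% in control, and the lowest larvae stood at 8.29% and 14.5%. Many neighbouring libraries held nearly the same level. With betamethasone, libraries 5 to 8 lay between 92.5% and 93.5%, 19 and 20 at 95.9% and 96.4%, and 11 to 14 between 8.29% and 10.2%. Libraries 9 and 10 lay at 28.8% and 31.2%, and 16 and 17 at 19.2% and 19.4%. Libraries 21 and 22 lay at 29.1% and 31.9%, and 23 and 24 at 78.3% and 80.3%. In control, libraries 4 and 5 lay at 93.3% and 93.1%, 8 to 11 between 28.4% and 30.1%, and 17 and 18 at 33.3% and 34.7%. These larvae may not be independent, so the counts and the test may overstate the evidence. Leaving out 1 larva at a time gave ratios of 1.40 to 1.56 and took the test past the threshold in 16 of 48 cases, as did a minimum of 100 reads (adjusted p = 0.0499). Without the libraries above 2% non-CpG methylation the ratio was 1.37 (adjusted p = 0.219).

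**Figure D4:**
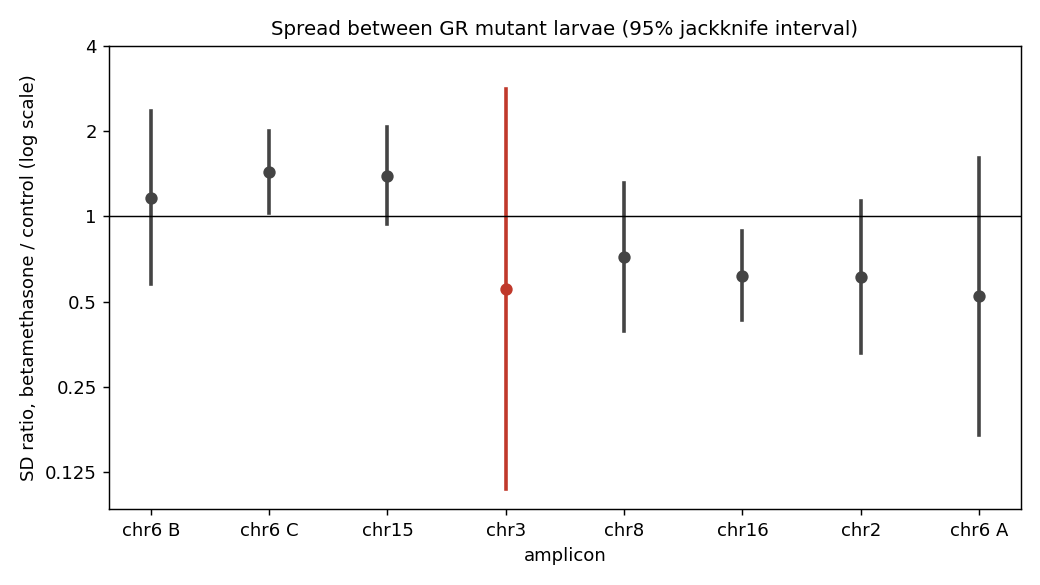
Ratio of SDs between larvae, betamethasone-treated over control GR mutants (log axis), per amplicon, with 95% jackknife intervals; chr6 A, B and C are the amplicons at 28.0, 41.1 and 49.7 Mb. The ratio is above 1 at chr6 B, chr6 C and chromosome 15 and below 1 at the other 5; chromosome 3 (red) is the 1 past the adjusted threshold of the permutation test of deviations, although the interval of its SD ratio includes 1.

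The other amplicons did not pass. The SD ratio was 1.16 at 41.1 Mb of chromosome 6 and 1.39 on chromosome 15, and 0.522 at 28.0 Mb of chromosome 6, 0.610 on chromosome 2, 0.618 on chromosome 16 and 0.720 on chromosome 8, with adjusted p of 0.213 to 0.805 by the permutation test. At 28.0 Mb single larvae decided the ratio, which was 0.366 without betamethasone-treated library 4 (adjusted p = 0.0346, the 1 of 48 cases that passed) and 0.824 without control library 17 (adjusted p = 0.254). On chromosome 16 the jackknife interval of the ratio, 0.431 to 0.885, excluded 1, although the test of deviations did not pass (adjusted p = 0.213). Of the 50 CpGs, 29 were wider and 21 narrower with betamethasone, the median ratio was 1.04, and 2 (4%) passed, both narrower and both on chromosome 3. These were 25888047, with SDs of 13.9 points with betamethasone and 26.1 in control (adjusted p = 0.0160 by the permutation test), and 25888068, with 9.49 points with betamethasone and 20.8 in control (adjusted p = 0.0260). Both calls were lost when 100 reads were required (adjusted p = 0.0712 each) and when reads were thinned to 30 (0.191 each). Their SD ratios of 0.535 and 0.455 became 0.249 and 0.221 without betamethasone-treated library 1. A test of 2 beta-binomial dispersions called 7 CpGs, these 2 and 5 on chromosomes 2, 8 and 16 and at 28.0 Mb of chromosome 6. At 25888047 the 21 shallow betamethasone-treated larvae lay between 25.0% and 41.9% and the 3 shallow control larvae between 24.2% and 28.7%. The 2 deep betamethasone-treated larvae stood at 89.0% and 5.98%, and the 20 deep control larvae spread from 2.35% to 86.1%. The wide scatter was seen in deep libraries of both treatments. The 5 CpGs at 49.7 Mb of chromosome 6 had ratios of 1.42 to 1.46, each with an adjusted p of 0.0925.

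The response in mutants was then set against that in wild type, where the same exposure gave 11 of 50 CpGs (22%) and 3 of 8 amplicons (37.5%) past the threshold. The wild-type difference lay outside the 95% interval of the mutant difference at each of those 11 CpGs and at 10 of the other 39. The 11 had been picked by their adjusted p in wild type, so their wild-type differences were not a neutral choice. Both counts leave out the error of the wild-type value. With it, the 95% interval of the difference between the genotypes excluded 0 at 9 of the 11, and 5 of the 11 had the same sign in both genotypes. The difference between the genotypes, tested as an interaction in 1 beta-binomial regression over all 4 groups, passed at 7 of 50 CpGs (14%) and 3 of 8 amplicons (37.5%), and 4 of the 11 CpGs were among the 7. By permutation within genotype 10 CpGs and 3 amplicons passed.

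Betamethasone-treated mutants lay 5.94 points above their controls at 49.7 Mb of chromosome 6 (95% interval -11.1 to 23.0), and the corresponding difference in wild type was -24.3. The difference between them was 30.3 points (SE 10.3, 95% interval 9.78 to 50.8, adjusted p = 0.0205 by the beta-binomial interaction test). At 41.1 Mb it was -1.27 in mutants (95% interval -4.40 to 1.87) and -7.07 in wild type, 5.80 points apart (SE 1.93, 95% interval 1.96 to 9.65, adjusted p = 0.0205). At both amplicons the loss of methylation seen in wild type thus lay outside the mutant interval. The control means were not alike, however. At 49.7 Mb they were 78.1% in wild type and 45.9% in mutants, with 53.8% and 51.8% after betamethasone. At 41.1 Mb they were 69.3% in wild type and 75.1% in mutants, with 62.2% and 73.8% after betamethasone. What part the control level had in the difference between genotypes was not tested. Median depth at 41.1 Mb was alike in the mutant groups, at 7928 reads per CpG with betamethasone and 7923 in control. In wild type it was 7988.5 with betamethasone and 3313 in control. On chromosome 3 the difference was -6.02 in mutants and 3.14 in wild type, -9.16 points apart (SE 3.28, 95% interval -15.7 to -2.59, adjusted p = 0.0205). Depth there moved with treatment in the opposite sense in wild type, with 6 of 23 betamethasone-treated and 16 of 22 control libraries under 300 reads per CpG. On chromosome 8, which passed in wild type with 8.59 points, the mutant interval of -6.34 to 11.2 included that size, and the interaction did not pass (difference -6.15, adjusted p = 0.587). Median depth on chromosome 8 also moved in opposite senses. It was 61 reads per CpG with betamethasone and 170 in control in mutants, and 1390 and 180 in wild type. On chromosome 16 it was 722 and 1705 in mutants, and 2234 and 516 in wild type. In mutants neither passed the permutation test of log10 depth. The adjusted p by that test was 0.266 on chromosome 8 and 0.154 on chromosome 16 (unadjusted p = 0.0385 on chromosome 16). The part of depth in these differences was not tested.

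**Figure D5:**
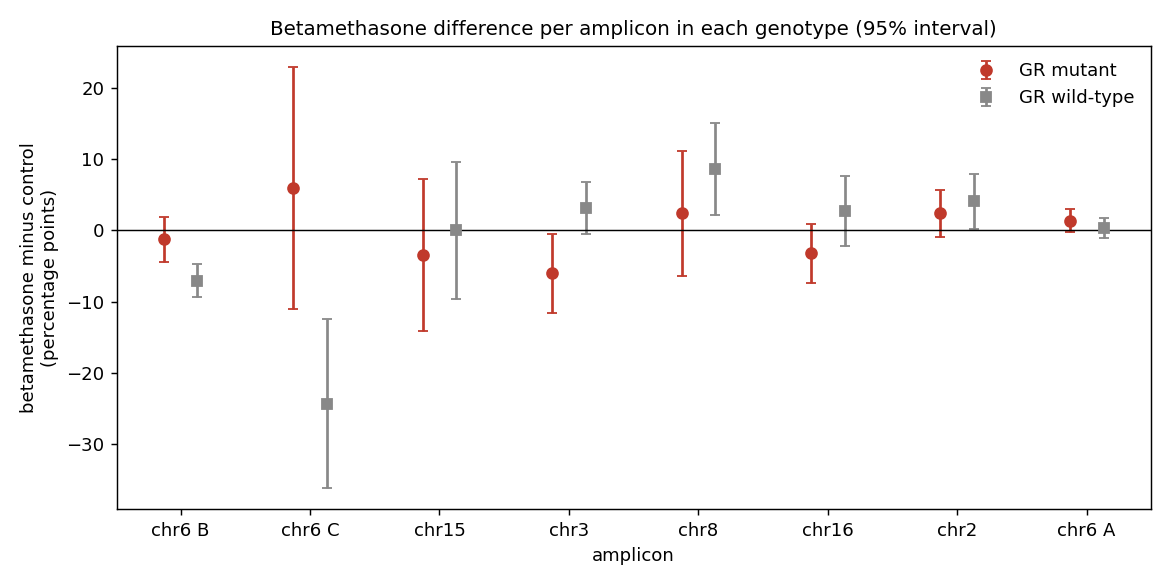
Betamethasone-treated minus control difference of mean methylation (percentage points, 95% interval) per amplicon, in GR mutant (red) and GR wild-type larvae (grey); chr6 A, B and C are the amplicons at 28.0, 41.1 and 49.7 Mb. At chr6 B and C the wild-type differences of -7.07 and -24.3 lie below the mutant intervals, and on chromosome 3 the 2 genotypes lie on opposite sides of 0.

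These interactions were recomputed without the libraries above 2% non-CpG methylation, of which the mutants had 1 betamethasone-treated and 5 control ones. With such libraries of all 4 groups left out, 76 of 94 remained at 41.1 and 49.7 Mb, so most of those left out were wild-type. Then 0 of 8 amplicons passed by the beta-binomial test, with 4 at an unadjusted p below 0.05. The difference between the genotypes was then 28.0 points at 49.7 Mb (95% interval 5.83 to 50.2, adjusted p = 0.0565), 3.45 at 41.1 Mb (95% interval -0.657 to 7.56, adjusted p = 0.331) and -10.0 on chromosome 3 (95% interval -17.9 to -2.11, adjusted p = 0.0565). On chromosome 8 it was -16.4 (95% interval -27.1 to -5.76, adjusted p = 0.0565), from -0.988 in mutants and 15.5 in wild type, and on chromosome 16 it was -7.96 (95% interval -15.1 to -0.866, adjusted p = 0.0565). Of the CpGs, 6 passed in place of 7, and 4 of the 6 were among the 7.

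Among single CpGs, the wild-type sites at 41.1 Mb had small mutant values. Position 41099447, near the amplicon end, differed by -1.89 points in mutants (95% interval -6.00 to 2.23) and by -12.0 in wild type. Position 41099291 differed by -1.14 in mutants (95% interval -3.79 to 1.50) and -5.36 in wild type, and 41099420 by -0.697 in mutants (95% interval -2.53 to 1.13) and -3.43 in wild type. All 3 were lower in both genotypes, and their wild-type size lay outside the mutant interval, yet none passed the beta-binomial interaction test (adjusted p of 0.0886 to 0.565). By permutation within genotype 41099447 passed (adjusted p = 0.0300) and the other two did not (0.114 and 0.120). At 49.7 Mb the 5 CpGs had differences of 5.14 to 6.94 points in mutants and of -25.4 to -23.1 in wild type, and 49743986, 49743996 and 49744068 passed the interaction (adjusted p = 0.0401 each), while 49744039 and 49744053 did not (0.0756 each). By permutation within genotype all 5 passed (adjusted p of 0.0326 to 0.0350), and without libraries above 2% non-CpG methylation none of the 5 did (0.0870 to 0.205, beta-binomial test). The differences between the genotypes were then 28.6, 29.2, 27.1, 26.2 and 29.0 points in order of position, against 31.2, 31.6, 29.2, 28.7 and 30.7 with all libraries, and each 95% interval excluded 0.

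At 25888054 on chromosome 3 the difference was -6.54 in mutants and 8.95 in wild type, -15.5 apart (adjusted p = 0.00174 by the beta-binomial interaction test). At 22488829 on chromosome 8 it was 8.71 in mutants, with the wide 95% interval of -11.5 to 29.0, and 34.6 in wild type (interaction -25.9, adjusted p = 0.141). At 27961568, near an end of the amplicon at 28.0 Mb, it was 1.88 in mutants (95% interval -0.729 to 4.49) and 5.24 in wild type (interaction -3.36, adjusted p = 0.105). Control library 17 of the mutants, at 72.4%, decided the mutant value, which was 0.719 without it. Without libraries above 2% non-CpG methylation both interactions passed, with -46.1 points at 22488829 (95% interval -77.9 to -14.2, adjusted p = 0.0227) and -5.70 at 27961568 (95% interval -12.5 to 1.11, adjusted p = 0.0338). Median depth on chromosome 8 moved with treatment in opposite senses in the 2 genotypes, as given above. The change in spread differed between genotypes at 1 of 8 amplicons (12.5%), chromosome 3, where the mean absolute deviation changed by -6.28 points in mutants and by 1.69 in wild type (difference -7.97, adjusted p = 0.00672 by permutation within genotype). At 49.7 Mb the SD ratio was 1.43 in mutants and 1.41 in wild type, and the change in spread did not pass a test of the difference between them (adjusted p = 0.517).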

How the data were processed

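Per the labels' protocols, larval head DNA was bisulfite-converted, amplified by a target PCR, pooled, barcoded by a second PCR and sequenced as read pairs. FastQC, cutadapt, BS-Seeker2 and build GRCz10 were used, per the submitters' processing notes, and their versions were not given in the sources used here. For each cytosine the authors deposited its methylation level as a fraction beside a methylated read count and a total read count. Fraction and count ratio disagreed beyond rounding at 0 cytosines, and levels were taken from the counts. Deposited depth ends near 8000 reads, so differences in depth above that are not visible.

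Groups were taken from the labels, which give no clutch or batch, so the tests measure spread between libraries only. No molecular identifiers mark PCR copies, and counting error covers the sampling of reads only. Target amplicons were runs of cytosines spaced by 100 bp or less that reached 30 reads in 48 or more libraries. CpGs needed 10 or more larvae per group with 30 reads, and an amplicon value needed all its tested CpGs. A region on chromosome 12 without a CpG was left out. The comparison, amplicons, rules and tests were chosen with earlier results of these data known. Named are all amplicons, CpGs past the threshold for level or spread, CpGs with an unadjusted p below 0.05 for the level, the largest difference of each amplicon and the CpGs past the threshold in wild type. Positions 41099385, 4079310, 8404240, 14499697 and 8404225 were added after their values were seen.

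Levels were compared by beta-binomial regression (likelihood ratio test, 1 shared dispersion, 1 observation per larva), with unequal-variance 95% intervals of unweighted means, widened by Bonferroni where called simultaneous. Spread was compared by 100000 permutations of absolute deviations from the group median, and SD ratios have jackknife intervals. Adjusted p-values follow Benjamini-Hochberg over the CpGs or amplicons of a comparison. The alternatives changed the read minimum (10, 100, 300 or 1000; 300 was chosen after seeing the data), the test, the dispersion, the libraries kept, the treatment of matching or neighbouring libraries, the replicate block and the CpGs kept. Libraries matched where the chi-square per CpG was below 4 at 500 or more reads. The tests were also run on simulated independent larvae, which cannot show how they behave where libraries match. The work used matplotlib 3.10.9, pandas 2.3.3, numpy 2.4.6 and scipy 1.17.1 in Python 3.11.15.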

Additional observations from a re-analysis of the deposited data

Results flagged for a closer look

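The following betamethasone differences differed between GR mutant and wild-type larvae by the beta-binomial interaction test, given as the mutant minus the wild-type difference in percentage points. Among amplicons these were 5.80 at 41.1 Mb of chromosome 6, 30.3 at 49.7 Mb of chromosome 6 and -9.16 on chromosome 3, and with the libraries above 2% non-CpG methylation left out none of the 3 passed, at 3.45, 28.0 and -10.0 points in the same order (adjusted p of 0.0565 to 0.331). Among CpGs at 49.7 Mb they were 31.2 at 49743986, 31.6 at 49743996 and 30.7 at 49744068, and with the same libraries left out all 3 calls were lost (adjusted p of 0.0870 to 0.0981), at differences of 28.6, 29.2 and 29.0 points whose 95% intervals excluded 0. On chromosome 3 the value was -15.5 at 25888054. On chromosome 16 it was -14.0 at 8404205, where the mutant difference was -10.6 and the wild-type one 3.42. The neighbouring 8404225, near the amplicon end, also gave -14.0, from -6.62 in mutants and 7.36 in wild type. Median depth on chromosome 16 was lower with betamethasone in mutants and higher in wild type, and its part was not tested. At 28.0 Mb of chromosome 6, 27961650 gave 9.20, from 5.75 in mutants and -3.45 in wild type. The 7 CpGs had adjusted p of 0.00174 to 0.0401, and the 4 outside 49.7 Mb also passed without those libraries.

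The change in spread between larvae on chromosome 3 also differed between the genotypes, by -7.97 points of mean absolute deviation (adjusted p = 0.00672 by permutation within genotype). The share of shallow libraries there moved with treatment in opposite directions in the 2 genotypes, and its part in the result was not tested.

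Reads at CpGs outside the target amplicons entered no comparison above, and differed between the mutant groups. Their methylation was 79.3% ± 9.62 in betamethasone-treated and 70.0% ± 15.5 in control mutants (SD, n = 24 each), a difference of 9.31 points (SE 3.73, 95% interval 1.77 to 16.9, two-sided permutation p = 0.0159). These reads fall at different CpGs in different libraries, so the value mixes which sites were read with how methylated they were.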

How the results depend on the processing

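Of the 50 CpG levels, 1 passed in the mutants; 0 passed with a minimum of 300 reads (37 CpGs testable, none on chromosome 3) or 1000 reads (27 CpGs), by the permutation test (9 at an unadjusted p below 0.05), without libraries above 2% non-CpG methylation, with run means of 4 neighbouring numbers (smallest possible exact p 0.00216, so that 1 CpG alone could not pass) and with matching libraries counted once. It was 2 by the quasi-binomial test and without CpGs near amplicon ends, and 9 with a dispersion per group. For amplicon levels the count of 0 became 1 by the quasi-binomial test. Of the 2 CpGs called for spread, 0 were with a minimum of 100, 300 or 1000 reads, with reads thinned to 30 and with run means, while a test of 2 beta-binomial dispersions called 7. The 1 amplicon became 2 at 100 reads, 0 at 300 and 1000 reads and 0 by the dispersions. The 3 amplicons past the interaction test became 0 without libraries above 2% non-CpG methylation, and the 1 past the spread interaction became 3 at 100 reads. Leaving out 1 larva at a time gave 1 to 6 CpGs and 0 to 1 amplicons for level, and 2 to 7 CpGs and 1 to 3 amplicons for spread. The top of the first 3 ranges came without betamethasone-treated library 1. Position 25888127 passed in each of these 48 cases (adjusted p of 0.00175 to 0.0205, beta-binomial test).

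Directions reversed by the quasi-binomial test at 25888004 (0.0173 points), 25888068 (3.59) and 22488753 (19.3). Without libraries above 2% non-CpG methylation they reversed at 49744039 (-0.275), 49744053 (-0.0781), the chromosome 8 level (-0.988) and the chromosome 8 SD ratio (1.19), and with run means at the chromosome 16 SD ratio (1.30). The cause was not tested.

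Same-numbered libraries are not known to share an origin. Their deviations correlated between -0.404 and 0.700 over 23 pairs, 13 above 0.1, and 4 libraries correlated best with their own number. The replicate block took the difference within each number and tested the mean by random sign flips. With it 1 CpG passed, 25888054 (-8.21, adjusted p = 0.0140, sign-flip test), while 25888127 did not (-2.46, adjusted p = 0.122). Neighbouring numbers of a mutant group matched within sampling noise in 31 of 182 comparisons (17.0%) and other pairs in 45 of 1947 (2.31%). The rule for a match is strict at high depth. Betamethasone-treated libraries 23 and 24, at 78.3% and 80.3% at 49.7 Mb of chromosome 6, do not meet it. Such pairs therefore stayed separate where matching libraries were counted once. Libraries with more distant numbers also had nearly the same level, as in the pairs listed for chromosome 15. The libraries may therefore not be fully independent, and the intervals may then be too narrow.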
